A study of Arabidopsis thaliana with 6 samples.

Results

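The genes described here are TIR and TIR-NBS genes that lie side by side in the genome of Arabidopsis thaliana, from AT1G72890 to AT1G72950. They were chosen by locus, with the differences between atr8 mutant and wild type on these same arrays in view, and are represented by the probe sets that the platform annotation lists with exactly 1 gene among these 7 loci. Of the 7 genes, 5 had such a probe set, out of 13286 genes with a probe set of their own: AT1G72890, AT1G72900, AT1G72920, AT1G72940 and AT1G72950. The other 2 genes, AT1G72910 and AT1G72930, had no probe set naming them alone and were not analysed here. AT1G72930 carries the symbol TIR and the synonym TN10 in the RefSeq gene table, and the other loci are given there by locus only. In the gene order of that table the stretch holds 10 genes, the 7 listed loci and 3 long non-coding RNA genes, with no other protein-coding gene between them. That table holds no product descriptions, so the TIR domain of each gene was taken from the list and not checked. All 5 probe sets bear the plain suffix _at, and whether they also bind transcripts of the similar genes beside them was not tested.

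TIR domains are enzymes of plant immunity that cleave NAD+ and make small nucleotide signals. In a full-length receptor the TIR domain is joined to a nucleotide-binding domain and leucine-rich repeats that sense a pathogen effector, whereas truncated TIR genes encode the TIR domain alone or with a nucleotide-binding domain and lack the repeats. The signals are perceived by EDS1 paired with PAD4 or SAG101, and the pairs act with helper receptors of the ADR1 and NRG1 families to drive salicylic acid defence and cell death.

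Transcript levels came from 6 Affymetrix ATH1 arrays, each of biotin-labelled cRNA from whole seedlings, 3 of the atr8 mutant and 3 of the wild type, both in the accession Wassilevskija. AtR8 is a long non-coding RNA, and the series addressed its part in defence. All seedlings, aged 10 days, were dipped for 6 h in air-purged water, the hypoxic treatment, and then given 22 h of recovery on agar medium, so no unstressed group was compared. The series calls the arrays of a genotype biological replicates. No allele or number of mutant lines is given per array.

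The deposited values were linear intensities with a median of 192.9 on each array. In mutant replicates 2 and 3 most control transcripts differed from those of the other arrays. The 3′ to 5′ signal ratio of actin was 28.9 and 19.6 there, against 2.13 in mutant replicate 1 and 2.17 to 2.66 in the wild type. For the lys control it was 15.3 and 16.3, against 0.922 and 0.614 to 0.842. Not all followed: phe in mutant replicate 3 (4.14) lay within the wild-type range of 0.723 to 15.5. Mutant replicate 1 also exceeded every wild-type array for dap (7.45 against 2.73 to 5.25), for GAPDH (0.996 against 0.794 to 0.844) and for lys. It did not for actin, Ubq, thr or phe. Markers of shoot tissue, 4 of 9 measured, summed to intensities of 35737 to 43234 on mutant arrays and 70068 to 71769 on wild-type arrays. Root markers, 4 of 7 measured, summed to 1557 to 2102 on mutant arrays and 2304 to 2484 on wild-type arrays. Limma called 0 of these 8 markers, where it called 0.712% of all probe sets higher and 0.207% lower. The 4 shoot markers all had lower estimates in the mutant, with an adjusted p of 0.07 to 0.168 by limma. LHCB4.2 and LHCB4.1, which encode light-harvesting antenna proteins, had log2 differences of −1.56 ± 0.26 and −1.06 ± 0.19 (SE). Among root markers these were −0.63 ± 0.26 for AT1G30870, −0.86 ± 0.35 for the root hair expansin gene EXPA7, −0.62 ± 0.30 for EXPA18 and 0.01 ± 0.22 for AT5G66390. None of the 8 measured markers was near 0 on any array. The part of these differences in the values below was not tested. Each cluster gene is also given on mutant replicate 1 alone, where the actin ratio was 2.13. That array does not set the marker differences aside, because its shoot markers were lower too. Against the wild-type average, LHCB4.2 stood at −1.24 and LHCB4.1 at −0.83 (log2) on it.

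All 5 measured cluster genes had higher average signal in the atr8 mutant. On a log2 scale after adding 16 to each intensity, the differences ran from 0.66 for AT1G72890 to 1.81 for AT1G72940, with a median of 1.24. The median over all probe sets tested was −0.01. On 3 of the 5 genes every mutant array lay above every wild-type array. Across all probe sets, 11.2% had such non-overlapping arrays with the mutant higher. As the loci were proposed with this contrast known, these values describe the genes and test nothing.

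AT1G72940 had intensities of 1054, 993 and 926 in mutant replicates 1, 2 and 3, against 301, 223 and 295 in wild-type replicates 1, 2 and 3. The lowest mutant array stood 624 units above the highest wild-type array. The mean was 991 ± 64.2 in the mutant and 273 ± 43.2 in the wild type (SD, n = 3 each), a log2 difference of 1.81 ± 0.21 (SE). The mutant arrays of this gene were the closest together of the 5, with a coefficient of variation of 6.48%, against 18.3% to 47.9% for the other 4. Taken alone, mutant replicate 1 exceeded the wild-type average by 1.90 (log2).

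AT1G72900 read 1068, 1318 and 1632 in mutant replicates 1, 2 and 3, against 394, 299.95 and 486 in the wild-type replicates. Both groups spread to a like degree, with coefficients of variation of 21.1% in the mutant and 23.7% in the wild type, and they did not overlap. The mean was 1339 ± 283 in the mutant and 393 ± 93.1 in the wild type, a log2 difference of 1.73 ± 0.27. On mutant replicate 1 alone it was 1.43, the lowest of the 3 mutant arrays, and on replicate 3 it was 2.03.

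AT1G72920 read 337, 449 and 751 in mutant replicates 1, 2 and 3, against 275, 193 and 195 in the wild-type replicates. The groups did not overlap, but mutant replicate 1 lay only 62.1 units above the highest wild-type array. The mean was 512 ± 214 in the mutant and 221 ± 46.4 in the wild type, a log2 difference of 1.10 ± 0.34. Mutant replicates 1, 2 and 3 exceeded the wild-type average by 0.59, 0.99 and 1.71 (log2), so the size of this difference varied most with the mutant array taken among the 3 genes without overlap.

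The outermost genes of the stretch overlapped between the genotypes. AT1G72950 read 222, 89.4 and 122 in mutant replicates 1, 2 and 3, against 16.0, 59.1 and 92.1 in the wild-type replicates. Mutant replicate 2 lay below wild-type replicate 3, and the other 8 of the 9 pairs of a mutant with a wild-type array had the mutant higher. The mean was 144 ± 69.1 in the mutant and 55.7 ± 38.1 in the wild type, a log2 difference of 1.24 ± 0.54. Wild-type replicate 1 lay near the constant of 16 added, and the difference moved with both: it was 1.57 with 1 added, 0.80 with 64 added and 0.75 without wild-type replicate 1. Against the wild-type average, mutant replicate 1 alone stood at 1.90 and replicate 2 at 0.72 (log2). AT1G72890, at the other end, read 141, 167 and 203 in the mutant, against 62.4, 162 and 98.1 in the wild type. Its mean was 170 ± 31.2 in the mutant and 107 ± 50.4 in the wild type, a log2 difference of 0.66 ± 0.35, the smallest of the 5. Again 8 of 9 pairs had the mutant higher, and wild-type replicate 2 lay within the mutant range. On mutant replicate 1 alone the difference was 0.43.

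**Figure D1:**
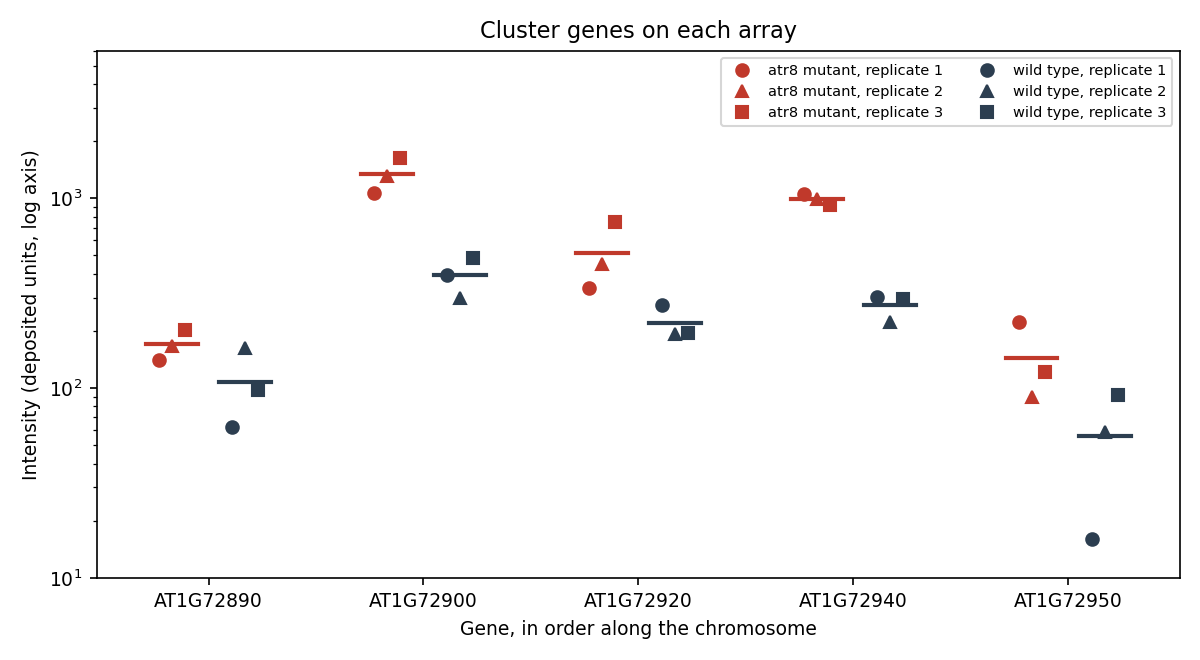
Intensity (log axis, deposited units) of the 5 cluster genes on each of 6 arrays, with atr8 mutant in red and wild type in dark blue. Marker shapes give the replicate number and lines give the mean of 3 arrays. Mutant and wild-type points are apart for AT1G72900, AT1G72920 and AT1G72940 and overlap for AT1G72890 and AT1G72950. Levels of different probe sets are not comparable with each other.

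Ordered by size of the difference, AT1G72940 was followed by AT1G72900, AT1G72950, AT1G72920 and AT1G72890. No gene in that order differed from its neighbour beyond the combined standard error: the gaps were 0.08, 0.49, 0.15 and 0.44 on the log2 scale, with combined standard errors of 0.34, 0.60, 0.64 and 0.49. From the first to the last of the order the gap was 1.15 with a combined standard error of 0.40. A log2 difference of at least 1 was seen in 4 of the 5 genes and in 6.43% of all probe sets.

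A limma fit over all 22746 probe sets, with Benjamini-Hochberg adjustment and a threshold of 0.05, placed 1 of the 5 genes, AT1G72940, past the threshold as higher in the mutant. In that fit 0.712% of probe sets were called higher and 0.207% lower. With any one array other than mutant replicate 1 left out, limma called 0 of the 5 genes and 0 probe sets in all, with 2443 to 2594 probe sets at an unadjusted p under 0.05. AT1G72940 was past the threshold in 8 of 15 alternatives and lost it in 7, with the replicate number as a block, with mutant replicate 1 alone and without each of the 5 arrays just named. Among the 8 were 1 added in place of 16, where 0.343% of probe sets were called higher, cyclic loess (0.747%), median centring (0.712%) and mutant replicate 1 left out (0.686%), and the other 4 were those in which AT1G72900 also passed. Median centring could hardly change a call, because the arrays already had the same median. AT1G72900 was past the threshold in 4 of 15 alternatives: with 64 added in place of 16, where 1.18% of probe sets were called higher, without the dimmest 30% of probe sets (1.83%), with a robust prior and an intensity trend (3.57%) and with array weights (1.01%). AT1G72920 was past it only with the robust prior and trend, and AT1G72890 and AT1G72950 in 0 of the 15. In no alternative was any of the 5 genes lower in the mutant.

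**Figure D2:**
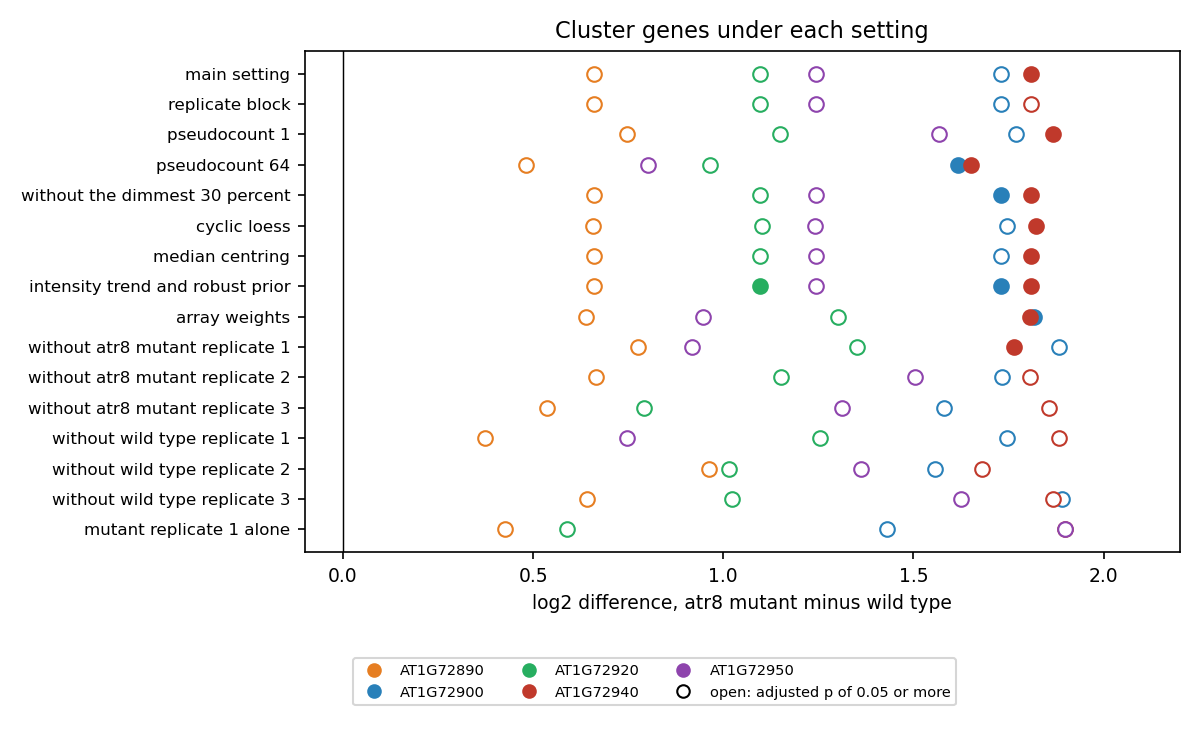
Log2 difference (atr8 mutant minus wild type) of the 5 cluster genes, on the horizontal axis, under the main setting and 15 alternatives, one per row. Filled points passed an adjusted p under 0.05 in the limma fit over all probe sets of that setting and open points did not. All points lie above 0, and AT1G72890 and AT1G72950 are open in every row.

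Deviations from the genotype mean, which do not use the difference between genotypes, did not run together among the 5 genes. Of 10 pairs, 3 had a positive Pearson r over the 6 arrays, with a median of −0.10. The highest was 0.63, between AT1G72900 and AT1G72920, and the lowest was −0.93, between AT1G72890 and AT1G72940. These points share arrays and normalization, and with 3 arrays per genotype they are a description only.

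The loci on either side were measured at 6 of 15 positions, and the signal of most was low and uneven. AT1G72840 and AT1G72860 among them are also listed as full-length TIR-NBS-LRR genes. Whether other neighbours carry a TIR domain, and so resemble the cluster genes, was not checked. Limma called 0 of the 6 in either direction, where it called 0.712% of all probe sets higher and 0.207% lower. An unadjusted p under 0.05 was reached by 0 of the 6. A list of 6 loci is too short for such counts to set it apart from all probe sets. Their median log2 difference was 0.11, with a range of −0.63 to 0.68. AT1G72960, named for its place directly after the cluster once its values had been seen, read 72.8, 40.6 and 4.2 in mutant replicates 1, 2 and 3, against 10.0, 72.2 and 55.1 in the wild type, and the groups overlapped widely (−0.23 ± 0.70). AT1G72870, the nearest measured locus before the cluster, stood at 0.68 ± 0.71, with mutant arrays of 33.5, 64.7 and 168 against wild-type arrays of 119, 16.3 and 25.3 (adjusted p = 0.707 by limma). AT1G73020, the farthest locus listed, stood at 0.45 ± 0.38 (adjusted p = 0.632 by limma). Its signal was not low, with a mean of 191 in the mutant and 145 in the wild type. Of the 5 cluster genes 0 were among the dimmest 30% of probe sets, against 4 of the 6 neighbours. Dimness was judged by the mean over both genotypes, so it is not independent of the difference the loci were chosen with. The wild-type mean of AT1G72950 (55.7) lay under the cut of 70.16, and its mutant mean (144) lay above. The difference between cluster and neighbours was not tested.

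**Figure D3:**
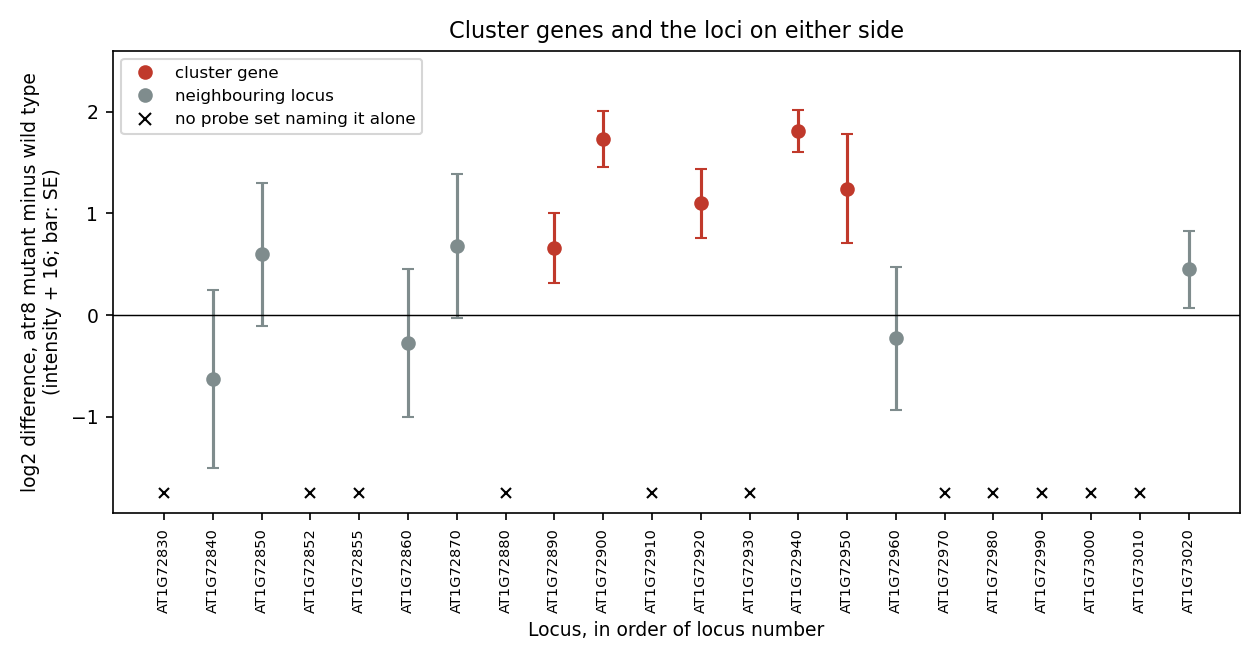
Log2 difference (atr8 mutant minus wild type, vertical axis, bars are SE of 3 against 3 arrays) for the cluster genes in red and the neighbouring loci in grey, in order of locus number. Crosses mark loci without a probe set naming them alone and carry no value. The 5 cluster genes lie between 0.66 and 1.81 and the 6 neighbours between −0.63 and 0.68.

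Truncated TIR genes at other loci were listed by locus, 37 in all, and 22 were measured. Limma called 1 of the 22 higher and 0 lower, where 0.712% of all probe sets were called higher and 0.207% lower. This was AT2G20142, with intensities of 323, 297 and 355 in mutant replicates 1, 2 and 3 against 116, 107 and 89.9 in the wild type, and the groups did not overlap. Its log2 difference was 1.51 ± 0.19 (adjusted p = 0.0388 by limma), and on mutant replicate 1 alone it was 1.50. Left out in turn, each of the 6 arrays cost the gene the threshold (adjusted p = 0.0538 to 0.151). The other 21 did not pass, and 18 of them had higher and 3 lower estimates. The median over the 22 was 0.55, and 4 of 22 had all mutant arrays above all wild-type arrays, as had 11.2% of all probe sets.

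Full-length TIR-NBS-LRR genes were listed at 88 loci, with 60 measured. Limma called 1 of the 60 higher and 0 lower, beside the same 0.712% and 0.207% of all probe sets. Of the 60, 34 had higher and 26 lower estimates, and the median log2 difference was 0.10. The gene called was AT1G17600, with 130, 70.9 and 52.9 in mutant replicates 1, 2 and 3 against 4.53, 6.72 and 3.81 in the wild type. Its wild-type arrays lay under the 16 added, so the log2 difference of 2.19 ± 0.31 (adjusted p = 0.0493 by limma) depends on that constant and ran from 1.07 with 64 added to 3.76 with 1 added. On mutant replicate 1 alone it was 2.79. With single arrays left out it stayed past the threshold only without mutant replicate 1, and the adjusted p by limma ran from 0.0449 to 0.152. All mutant arrays were above all wild-type arrays in 8 of the 60, beside 11.2% of all probe sets. The list includes AT1G72840 and AT1G72860, which also count among the neighbouring loci, and 41 of the 60 were among the dimmest 30% of probe sets, as were 15 of the 22 truncated genes.

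**Figure D4:**
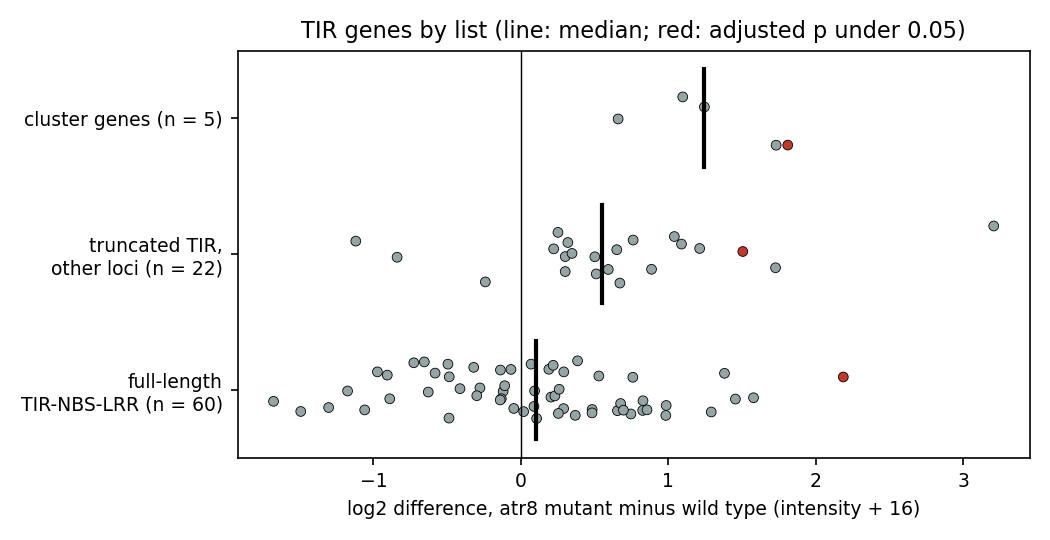
Log2 difference (atr8 mutant minus wild type) of each measured gene in the cluster (n = 5), among truncated TIR genes at other loci (n = 22) and among full-length TIR-NBS-LRR genes (n = 60). Points are genes, scattered vertically for clarity, black lines are medians of 1.24, 0.55 and 0.10, and red points passed an adjusted p under 0.05. Differences between the lists were not tested.

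Of the genes that act after the TIR enzymes, few had a probe set that the annotation used here lists with exactly 1 gene. That annotation did not list 8730 probe sets, and whether these measure the missing genes was not checked. Of the EDS1 family and helper receptors, 3 of 11 were measured, with 1 higher and 2 lower estimates. Limma called 0 of the 3 in either direction, where it called 0.712% of all probe sets higher and 0.207% lower. SAG101, a partner of EDS1, read 312, 347 and 248 in mutant replicates 1, 2 and 3 against 135, 106 and 259 in the wild type, with 1 wild-type array inside the mutant range (0.88 ± 0.35, adjusted p = 0.348 by limma, and 0.93 on mutant replicate 1 alone). AT5G66890 was dim, at 3.44, 6.84 and 5.95 in the mutant against 8.54, 62.5 and 38.6 in the wild type (−1.14 ± 0.44, adjusted p = 0.338 by limma). Of 13 salicylic acid and N-hydroxypipecolate genes 1 was measured, AT5G52810, with a mean of 559 ± 179 in the mutant and 515 ± 34.3 in the wild type (0.06 ± 0.29, adjusted p = 0.944 by limma).

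Genes with the pattern most like the cluster mean were sought among 5982 genes brighter than the median by their mean over both genotypes. The cluster mean holds the genotype difference the loci were chosen with, so the search favoured genes higher in the mutant. Over the 6 arrays the highest Pearson r belonged to AT5G61450 (0.996), AT5G39670 (0.996), AT1G51850 (0.994), ACA.l (0.993) and ATG8E, which encodes a ubiquitin-like protein of autophagy (0.993). AT5G39670 was the only one of the 5 past the threshold, at 473, 474 and 534 in the mutant against 92.3, 129.7 and 162 in the wild type (log2 difference 1.85 ± 0.24, adjusted p = 0.039 by limma). Its wild-type arrays all lay under the median of 192.44, so it entered the search through its mutant arrays. AT1G51850 stood at 2.06 ± 0.33 and ATG8E at 0.82 ± 0.21. An r over 0.95 was reached by 140 of the 5982 genes (2.34%). These points share arrays and genotype, and the r values are a description.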

How the data were processed

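The deposited intensities of 6 ATH1 arrays were used, 1 value per probe set and array. Sorted, the 6 columns were equal (tolerance 0.02), so the authors had quantile normalized them. The summarization software was not given in the sources used here, nor was any background correction. Precision is limited by the small number of arrays. Of 22810 probe sets, 64 controls were left out and 22746 tested. The annotation gave 13513 probe sets 1 gene and 503 several; 8730 it did not list are unnamed here. Of the former, 13436 matched a current locus of TAIR10.1 in the RefSeq gene table, which served for names and gene order.

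Values were transformed to log2(intensity + 16) and compared by limma 3.58.1 under R 4.3.3. Genotype was the single term, with Benjamini-Hochberg adjustment. The brightest probe set stood for a gene. The procedure was tested on simulated data. The cluster genes and lists were chosen with earlier results of these data known. Lists were written by locus, and their products were not checked against an annotation. Named were all cluster genes, of each list up to 4 genes past the threshold or else the 2 with the smallest p, and the 5 genes most like the cluster mean. Genes outside this rule are said to be named after their values were seen, apart from 2 root markers given to complete their list. Alternatives were the replicate number as a block, added constants of 1 and 64, removal of the dimmest 30%, cyclic loess, median centring, a robust prior with an intensity trend, array weights, each array left out, and mutant replicate 1 alone. Promoter motifs were not analysed here.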

Additional observations from a re-analysis of the deposited data

Results flagged for a closer look

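The comparison did not use control probe sets. Several of their 3′ to 5′ signal ratios were higher on mutant replicates 2 and 3 than on any wild-type array. For actin the ratio of 3′ to 5′ signal was 28.9 and 19.6 there, while wild-type arrays gave 2.17 to 2.66. For GAPDH it was 1.75 and 1.70, while wild-type arrays gave 0.794 to 0.844 and mutant replicate 1 gave 0.996.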

How the results depend on the processing

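The median log2 difference of the cluster genes kept its sign under all alternatives, from 0.96 with 64 added to 1.62 without wild-type replicate 3. Over all probe sets limma called 209. It called 0 with the replicate number as a block (2769 at an unadjusted p under 0.05) or with mutant replicate 1 alone (2194), 99 with 1 added, 336 with 64 added, 371 without the dimmest 30% and 1459 with an intensity trend and robust prior. With each array left out it called 0 to 314. Of truncated TIR genes elsewhere 1 was called in the main setting, 0 with the block, with 1 added, with mutant replicate 1 alone or with any array left out, 2 with 64 added and 3 with the trend. Of full-length genes 1 was called in the main setting, 0 with the block, with 64 added, without the dimmest 30% (where 19 remained tested), with cyclic loess or with mutant replicate 1 alone, and 0 to 1 with each array left out. AT2G20142 was past the threshold in 6 of 15 alternatives and AT1G17600 in 4 of the 14 that tested it. Both counts include median centring, which could hardly change a call on arrays of equal median. What caused each of these changes was not tested. Same-numbered arrays deviated together only weakly (r of 0.014, 0.012 and 0.005 across probe sets), though each correlated best with its own number. Whether same-numbered arrays share more than a number was not tested. Averaging the probe sets of a gene was not run, since each cluster gene had 1.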

Other observations

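Other TIR genes, chosen as higher in the mutant after their values were seen, did not pass the threshold. Their lists also held genes that stood lower. Among the 60 full-length genes, 5 had a log2 difference of −1 or less and 5 had 1 of at least 1. Among the 22 truncated genes elsewhere these counts were 1 and 6. A log2 difference of at least 1 was seen in 6.43% of all probe sets, and the share at −1 or less is not given here. Among the dimmest 30% of probe sets were 41 of the 60 and 15 of the 22 genes. How far these counts rest on dim genes was not tested. AT1G57630 read 366, 496 and 748 in mutant replicates 1, 2 and 3 against 83.7, 4.38 and 77.4 in the wild type, with no overlap (log2 difference 3.21 ± 0.68, adjusted p = 0.122 by limma). Wild-type replicate 2 lay under the 16 added, and the difference was 3.97 with 1 added, 2.37 with 64 added and 2.46 without that array. The gene passed in 2 of 15 alternatives, and its adjusted p over them ran from 0.000394 to 0.596. AT3G04210 read 529, 654 and 521 in the mutant against 323, 164 and 242 in the wild type (1.21 ± 0.29, adjusted p = 0.156 by limma). The full-length locus next to it in the gene order, AT3G04220, overlapped between the genotypes at 0.23 ± 0.41, and the difference between both was not tested. Among full-length genes AT1G63750 read 232, 221 and 389 in the mutant against 49.3, 87.0 and 117 in the wild type (1.58 ± 0.36, adjusted p = 0.147 by limma).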
